A study of Homo sapiens with 6 samples.

Results

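Fibroblast growth factor (FGF) signalling and its ERK feedback genes were examined in HEK293T, an established line from human embryonic kidney into which the SV40 large T antigen was introduced. The genes were taken by symbol from the count tables, namely the FGF ligands, FGFR1 to FGFR4 and FGFRL1, the binding proteins FGFBP1 to FGFBP3, the Sprouty (SPRY) and Spred (SPRED) inhibitors, the phosphatases DUSP4 to DUSP8, and the transcription factors ETV1, ETV4 and ETV5. This gave 45 genes of the 47470 listed. RNA-seq compared 3 libraries of untreated cells, grown without any added agent, with 3 libraries of cells given 1 mM valproic acid (VPA) for 1 day. VPA inhibits histone deacetylases. All 6 libraries came from this one line. Totals on genes lay between 18622267 and 18828495 counts. The labels do not say whether the 3 libraries of a condition came from separate cultures, so p-values measure only the spread between these libraries, which may be technical. In RNA from whole cultures, a change in every cell and a change in a part of the cells cannot be told apart.

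Secreted FGFs bind receptor tyrosine kinases together with heparan sulfate and pass a signal through the adaptor FRS2 to RAS, RAF, MEK and ERK. ERK in turn raises the transcription of ETV factors and of inhibitors such as Sprouty, Spred and DUSP proteins, which dampen the same cascade. In the developing kidney, FGFs keep nephron progenitors alive and dividing, and the hormone FGF23 lowers phosphate uptake in the adult kidney. FGF11 to FGF14 belong to the family by sequence but stay inside the cell and bind sodium channels.

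Promoter sequences are shown for the receptors FGFR3 and FGFR4, which moved in opposite directions, and for FGF23 and FGF5, the secreted ligands that rose by more than 2-fold. Each is the 250 bases before the RefSeq gene start on GRCh38.p14, written 5′ to 3′ on the gene's own strand, and for FGFR4 and FGF5 the first of 2 listed starts. Capitals mark the GC box GGGCGG read on either strand. FGFR3 is at chr4:1793043-1793292 on the plus strand, FGFR4 at chr5:177086665-177086914 on the plus strand, FGF23 at chr12:4379713-4379962 on the minus strand and FGF5 at chr4:80266338-80266587 on the plus strand.
FGFR3: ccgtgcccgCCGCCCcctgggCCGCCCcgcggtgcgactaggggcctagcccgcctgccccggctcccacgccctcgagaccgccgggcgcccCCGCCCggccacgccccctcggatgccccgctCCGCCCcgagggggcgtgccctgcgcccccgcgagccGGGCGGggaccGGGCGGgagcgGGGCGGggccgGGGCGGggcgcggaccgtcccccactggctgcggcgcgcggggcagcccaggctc
FGFR4: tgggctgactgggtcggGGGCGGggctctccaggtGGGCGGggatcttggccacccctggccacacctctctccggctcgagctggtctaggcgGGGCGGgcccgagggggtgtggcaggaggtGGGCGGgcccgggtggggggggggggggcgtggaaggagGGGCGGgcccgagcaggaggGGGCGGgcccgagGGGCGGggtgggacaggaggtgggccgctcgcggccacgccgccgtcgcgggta
FGF23: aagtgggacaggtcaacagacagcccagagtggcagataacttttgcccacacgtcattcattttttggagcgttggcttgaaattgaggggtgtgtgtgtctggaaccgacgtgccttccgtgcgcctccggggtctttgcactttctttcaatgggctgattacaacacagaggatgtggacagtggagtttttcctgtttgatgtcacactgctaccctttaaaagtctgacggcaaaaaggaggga
FGF5: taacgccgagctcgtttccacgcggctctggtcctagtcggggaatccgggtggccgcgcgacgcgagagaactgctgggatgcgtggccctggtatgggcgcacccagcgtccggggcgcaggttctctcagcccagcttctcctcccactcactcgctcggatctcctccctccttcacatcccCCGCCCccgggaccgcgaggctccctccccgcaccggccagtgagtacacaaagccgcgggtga

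The sequences shown for FGFR3 and FGFR4 looked alike in composition, with 8 and 7 GC boxes and a GC content of 86.8% and 79.6%. The second listed start of FGFR4 was unlike both, with 0 GC boxes at 57.2% GC. The FGF23 promoter held 0 GC boxes at 49.6% GC. The FGF5 sequence shown held 1 at 68.8%, and that of its second start 0 at 47.2%. RefSeq windows of 300 bases, which run 50 bases past the start, were found for 33 of the 45 genes and for 19 of the 25 that could be tested, in 38 windows. Genes with several listed starts count more than once, with 6 windows for ETV1 and 5 for FGFR2, some of which overlap. A GC box was present in 23 of the 38 windows (60.5%) and in 45% of the 35116 windows of all genes. The short ETS core GGAA, which forms part of the longer ETS site, was in 92.1% of the 38 windows and 95.5% of all. The longer ETS site CCGGAAGT was in 0 of the 38 and in 4.14% of all, the AP-1 site TGACTCA in 7.89% against 4.95%, and the CRE TGACGTCA in 1 window (2.63%), that of DUSP8, against 1.85%. Both strands were searched, and a match is a description of the letters only.

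Of the 45 genes, 25 had enough counts to be tested and 20 did not. A gene is described as having risen or fallen where edgeR's quasi-likelihood test gave a Benjamini-Hochberg adjusted p under 0.05 over the 15298 genes tested, and as up-regulated or down-regulated where the log2 fold change was also at least 1 in size. In VPA-treated cells 13 of the 25 rose and 6 fell, and 6 passed neither way. Among all genes tested 32.9% rose and 30.0% fell, so the share that rose here, 52%, was above the background. The share that fell, 24%, was near the background. The 7 up-regulated genes were FGF23, FGF5, FGFBP1, ETV4, FGFR4, DUSP8 and FGF12, which is 28% of the tested genes against 12.0% in the background. No tested member was down-regulated, where the background was 0.503%. DESeq2 also gave 0, and 0 members had a log2 fold change of -1 or less at an unadjusted p under 0.05 in edgeR. FGF23 and ETV4 passed the filter on low counts only through the VPA-treated libraries, so these shares describe the genes that passed and are not a measure of the whole family. None of the 19 genes that rose or fell had overlapping groups of normalized counts, and neither did SPRY1, which did not pass the test. The same share over all genes tested was not computed. The 19 were chosen by their adjusted p, so the lack of overlap adds no support to the calls.

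**Figure D1:**
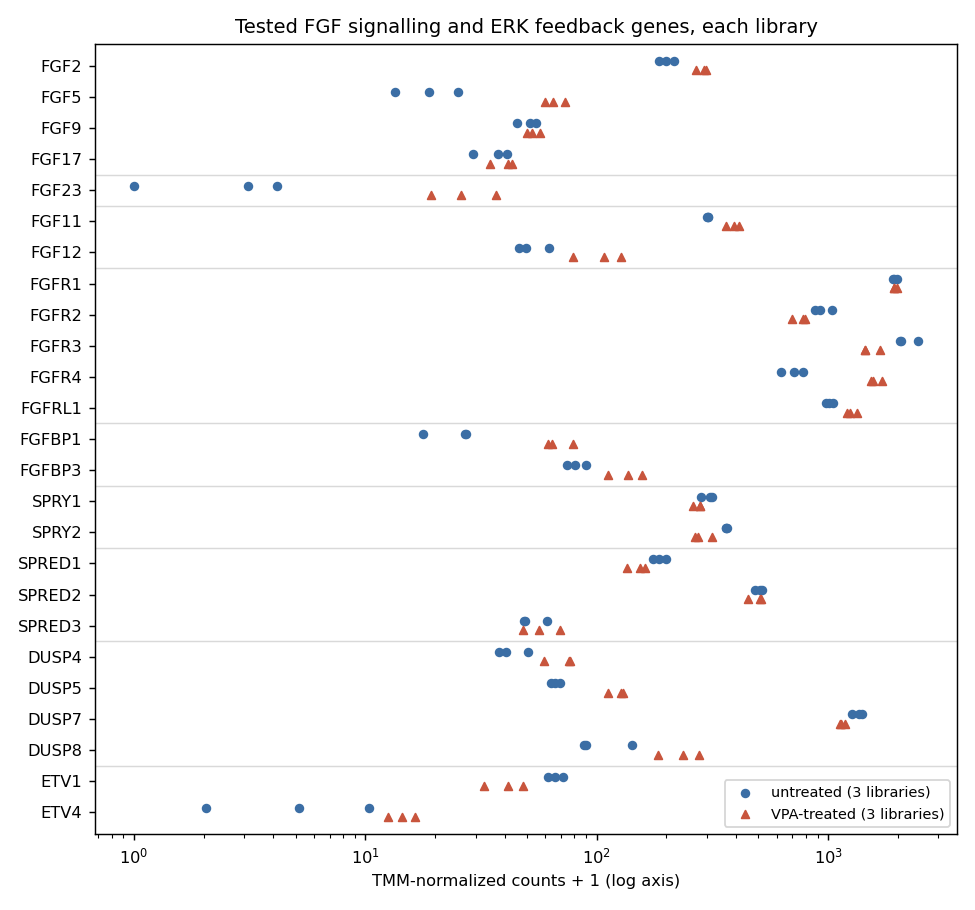
TMM-normalized counts plus 1 on a log axis for the 25 tested genes, with 3 untreated libraries (circles) and 3 VPA-treated libraries (triangles) per gene and grey lines between roles. The receptors and DUSP7 are the genes with the highest counts, FGFR4 lies near 704 untreated and 1600 VPA-treated, and FGF23 and ETV4 lie near the bottom of the scale in untreated cells.

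Of the 18 secreted ligands 5 were tested, and 3 of these rose (60%), 0 fell and 2 passed neither way. The shares over all genes tested were 32.9% and 30.0%. FGF23, among those that rose, passed the filter on low counts only through VPA-treated libraries. FGF2, a broadly acting mitogen that lacks a signal peptide, had 198, 184 and 215 normalized counts in untreated libraries and 289, 269 and 297 in VPA-treated libraries. It had the most counts of the tested ligands in both conditions, and its log2 fold change was 0.52 (SE 0.085, adjusted p = 1.92e-05). The gene lies on chromosome 4 from 122826682 to 122898236 on the plus strand and shares 804 exonic bases with NUDT6 on the other strand. NUDT6 itself rose by a log2 fold change of 0.62 (adjusted p = 9.05e-04). The study names a strand-specific library protocol, but the strand setting of the counting is not given in the sources used here. Reads of the pair could therefore not be assigned with certainty.

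FGF5, a regulator of hair growth, had 12.4, 17.8 and 24.1 normalized counts in untreated and 58.5, 63.6 and 71.8 in VPA-treated libraries. The lowest VPA-treated value was above the highest untreated one by more than the range within either group, with a log2 fold change of 1.83 (SE 0.21, adjusted p = 1.43e-07). The gene lies on chromosome 4 from 80266588 to 80291017 on the plus strand. It shares 136 exonic bases with CFAP299 on the same strand, which had 11 counts without VPA and 32 with it.

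FGF23, the bone-derived hormone of phosphate balance, was nearly silent in untreated cells. It maps to the minus strand of chromosome 12, between 4368227 and 4379712. Its raw counts were 0, 3 and 2 in untreated and 19, 37 and 26 in VPA-treated libraries, 5 against 82 in all. The fitted log2 fold change was 3.82 (SE 0.50, adjusted p = 9.17e-07) and depends on few counts in the untreated group, with a range of 2.92 to 4.49 over the alternatives tried. The Klotho proteins KL and KLB, without which endocrine FGFs bind their receptors poorly, had 0 and 1 counts without VPA and 3 and 10 counts with it, too few to test.

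FGF9 and FGF17, ligands with roles in embryonic patterning and growth, did not pass the test. FGF9 had 53.8, 50.2 and 44.1 normalized counts in untreated and 55.6, 49.1 and 51.7 in VPA-treated libraries. FGF17 had 36.2, 28.3 and 39.9 against 40.2, 33.7 and 42.1. In both genes the groups overlapped, with log2 fold changes of 0.077 (SE 0.16) and 0.15 (SE 0.19).

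The other 13 secreted ligands had too few counts to be tested. FGF8 had 23 counts without VPA and 17 with it, FGF18 10 and 13, FGF22 7 and 4, and FGF6 4 and 1. FGF19, a gut hormone of bile acid control, had 7 counts without VPA and 25 with it, and FGF7, the keratinocyte growth factor, had 1 and 12. Without the filter on low counts both of these passed edgeR's test, with log2 fold changes of 1.64 (SE 0.60, adjusted p = 0.0169) and 3.05 (SE 1.10, adjusted p = 0.0159), each resting on counts of 11 or fewer per library. FGF10, the lung and limb bud ligand, had 0 and 4 counts, FGF3 0 and 3, FGF1 1 and 2, FGF20 2 and 5, and FGF21 2 and 2. FGF4 is listed at 0 in every library, as is FGF16 on chromosome X. For FGF4 a count of 0 leaves room for an expected level of up to 3 counts per library. Every one of the 1647 listed genes of chromosomes X, Y and the mitochondrial genome is at 0, so the value of FGF16 says nothing of its expression.

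Members that lie next to each other did not always have like values. FGF23 and FGF6 are 54.4 kb apart on chromosome 12, and FGF6 went from 4 to 1 counts while FGF23 went from 5 to 82. FGF19, FGF4 and FGF3 lie in a row on chromosome 11 with gaps of 67.0 and 34.6 kb, with 32, 0 and 3 counts over the 6 libraries. FGFBP1 and FGFBP2 are 21.5 kb apart on chromosome 4 and had 276 and 4 counts.

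Both intracellular FGFs that could be tested rose, as did 32.9% of all genes tested. FGF11 had 302, 302 and 299 normalized counts in untreated and 411, 360 and 392 in VPA-treated libraries, with a log2 fold change of 0.37 (SE 0.073, adjusted p = 1.69e-04). The untreated libraries were nearly equal and lay below every VPA-treated one. FGF12 had 48.7, 45.0 and 60.9 in untreated and 77.6, 107 and 126 in VPA-treated libraries, a log2 fold change of 1.01 (SE 0.17, adjusted p = 4.41e-05). FGF12 sat on the fold threshold, and it fell short of it with 0.96, 0.91, 0.98 and 0.84 when untreated replicate 1, untreated replicate 2, VPA replicate 2 or VPA replicate 3 was left out. FGF13 on chromosome X and FGF14 are listed at 0 in every library. FGF14 shares 4356 exonic bases with ITGBL1 on the other strand.

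The receptors moved apart from each other. FGFR4, on chromosome 5 from 177086915 to 177098144, had 777, 712 and 623 normalized counts in untreated and 1704, 1565 and 1530 in VPA-treated libraries. The groups were far apart, and the log2 fold change was 1.18 (SE 0.065, adjusted p = 6.68e-12), the smallest adjusted p of the 25 genes. FGFR3, on chromosome 4 from 1793293 to 1808867, had 2452, 2070 and 2045 in untreated and 1677, 1439 and 1437 in VPA-treated libraries. It fell by 0.53 on the log2 scale (SE 0.076, adjusted p = 5.62e-05), and replicate 1 was the highest library in each group. FGFR3 slows the growth of cartilage, and FGFR4 serves FGF19 in the liver.

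FGFR2, a receptor of many epithelia, had 879, 918 and 1038 normalized counts in untreated and 775, 695 and 797 in VPA-treated libraries, and fell by 0.32 on the log2 scale (SE 0.065, adjusted p = 2.05e-04). FGFR1 had 1905, 1923 and 1989 in untreated and 1978, 1931 and 1926 in VPA-treated libraries. The groups overlapped, and the log2 fold change of FGFR1 was 0.0046 with an SE of 0.042 (adjusted p = 0.933). With library totals as the scaling FGFR1 passed the test at 0.14 (adjusted p = 0.0078), a setting that moved the median of all genes to 0.14 as well. FGFRL1, which binds FGFs but lacks the kinase, had 1047, 1009 and 979 in untreated and 1338, 1210 and 1247 in VPA-treated libraries and rose by a log2 fold change of 0.32 (SE 0.052, adjusted p = 1.32e-05).

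Levels of different receptors were compared as RPKM, computed from TMM-normalized counts and the length of the merged exons. In untreated cells FGFR3 was at 24.1 ± 2.51 (SD, n = 3), FGFRL1 at 12.4 ± 0.415, FGFR4 at 7.81 ± 0.858, FGFR1 at 6.02 ± 0.138 and FGFR2 at 2.68 ± 0.236. In VPA-treated cells the levels were 16.7 ± 1.52 for FGFR3, 17.8 ± 1.02 for FGFR4, 15.6 ± 0.810 for FGFRL1, 6.04 ± 0.0882 for FGFR1 and 2.15 ± 0.151 for FGFR2 (SD, n = 3). In untreated cells no neighbours in this order overlapped between libraries. After VPA the libraries of FGFR3 overlapped with those of FGFR4 and of FGFRL1, while FGFR4 lay above FGFRL1 in every library. With the length of the longest transcript in place of merged exons, FGFR1 stood above FGFR4 in untreated cells, at 16.7 ± 0.382 against 12.1 ± 1.34, and FGFR4 stood above FGFR3 in VPA-treated cells, at 27.6 ± 1.59 against 18.8 ± 1.71.

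**Figure D2:**
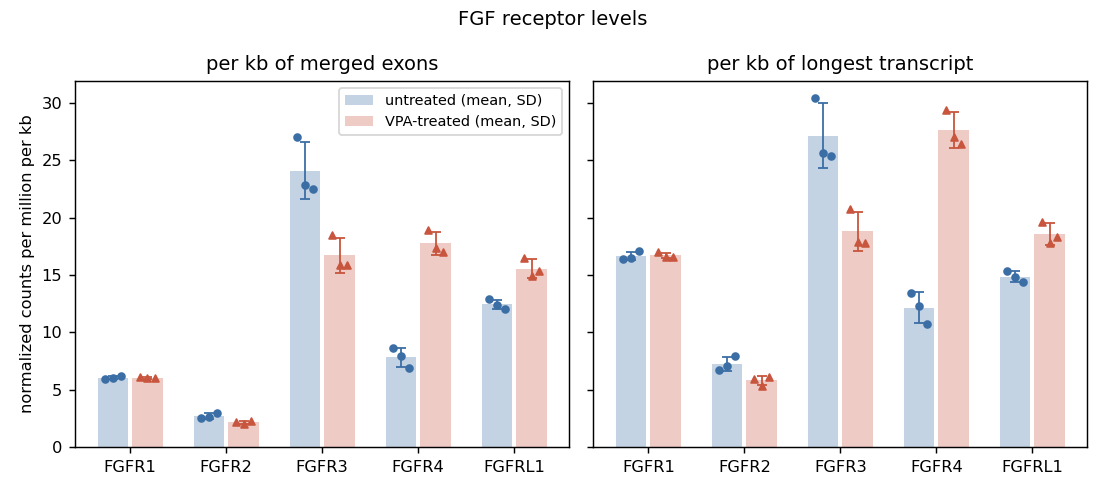
FGF receptor levels as RPKM on TMM-scaled libraries, by merged exon length (left) and by longest transcript (right), with bars for the mean, error bars for the SD of 3 libraries and points for single libraries. FGFR3 drops from 24.1 to 16.7 and FGFR4 rises from 7.81 to 17.8 in the left panel, while FGFR1 stays near 6.02.

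Among FGFR1 to FGFR4 on this scale, FGFR4 made up 19.6%, 20.1% and 17.9% of the summed level in untreated libraries and 41.4%, 42.2% and 41.4% in VPA-treated libraries. FGFR3 made up 61.3%, 58.1% and 58.4% and then 40.4%, 38.5% and 38.6%. The shares of FGFR4 and FGFR3 exchanged rank in all 3 VPA-treated libraries. The summed level of the 4 receptors was 40.6 ± 2.97 without VPA and 42.7 ± 2.66 with it (SD, n = 3), and the libraries of the groups overlapped. Per longest transcript the sum was 63.2 ± 3.22 and 69.0 ± 3.64, with values of 61.2 to 66.9 and 66.8 to 73.2, which also overlapped, though the means differed by more than either SD. On that scale the share of FGFR4 went from 19.2% ± 1.40 to 40.1% ± 0.505 and that of FGFR3 from 42.9% ± 2.22 to 27.3% ± 1.01 (SD, n = 3).

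The FGF binding proteins carry FGFs from the matrix to their receptors. Both tested members rose, as did 32.9% of all genes tested. FGFBP1, on chromosome 4 from 15935577 to 15938740, had 25.9, 26.2 and 16.8 normalized counts in untreated and 63.2, 60.7 and 77.6 in VPA-treated libraries. Their ranges were well separated, and the log2 fold change was 1.54 (SE 0.20, adjusted p = 5.88e-07). FGFBP3 had 79.7, 73.3 and 89.2 against 111, 136 and 155, a log2 fold change of 0.73 (SE 0.13, adjusted p = 6.92e-05). FGFBP2 had 0 and 4 counts and was not tested.

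The feedback genes, the Sprouty, Spred, DUSP and ETV members, included genes that rose and genes that fell. Of 15 genes 11 were tested, of which 4 rose (36.4%), 4 fell (36.4%) and 3 passed neither way, shares near the 32.9% and 30.0% of all genes tested. ETV4, among those that rose, passed the filter on low counts only through VPA-treated libraries. With DESeq2 3 rose and 4 fell. Of the 5 Sprouty and Spred genes tested 2 fell and 3 passed neither way. SPRY2, an inhibitor of receptor tyrosine kinase signalling, had 360, 361 and 363 normalized counts in untreated and 313, 265 and 272 in VPA-treated libraries, and fell by 0.35 on the log2 scale (SE 0.077, adjusted p = 4.49e-04). SPRY1 had 308, 313 and 280 against 260, 277 and 279, and its log2 fold change of -0.14 (SE 0.078) did not pass the test (adjusted p = 0.114). SPRY4 had 3 counts in each condition, and SPRY3 on chromosome X is listed at 0.

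Spred proteins bring neurofibromin to the membrane and so hold back RAS. SPRED1, mutated in Legius syndrome, had 184, 199 and 173 normalized counts in untreated and 152, 134 and 160 in VPA-treated libraries, and fell by 0.32 on the log2 scale (SE 0.10, adjusted p = 0.0089). That call rested on VPA replicate 2, without which the log2 fold change was -0.25 (adjusted p = 0.0594). SPRED2 had 517, 483 and 509 against 451, 508 and 511, and SPRED3 60.0, 48.2 and 47.2 against 68.0, 47.2 and 55.5. Their groups overlapped, with log2 fold changes of -0.037 (SE 0.066) and 0.13 (SE 0.17).

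Among the phosphatases, which remove phosphate from ERK and other MAP kinases, 3 of 4 tested rose (75%) and 1 fell (25%). The shares over all genes tested were 32.9% and 30.0%. DUSP5, which acts on ERK in the nucleus, had 62.1, 68.0 and 65.1 normalized counts in untreated and 129, 111 and 126 in VPA-treated libraries, a log2 fold change of 0.91 (SE 0.13, adjusted p = 1.93e-06). DUSP4, also nuclear, had 39.3, 49.2 and 36.7 against 75.7, 75.1 and 58.4, a log2 fold change of 0.74 (SE 0.17, adjusted p = 6.30e-04). Neither gene's groups overlapped.

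DUSP8, whose known targets are mainly JNK and p38 rather than ERK, had 141, 89.0 and 87.1 normalized counts in untreated and 277, 236 and 184 in VPA-treated libraries. Replicate 1 was the highest library in each group. Its log2 fold change was 1.13 (SE 0.19, adjusted p = 3.82e-04), and 0.99 without VPA replicate 1, just under the fold threshold. DUSP7, a cytoplasmic ERK phosphatase, had 1401, 1352 and 1270 against 1186, 1123 and 1139 and fell by 0.22 on the log2 scale (SE 0.050, adjusted p = 5.36e-04). DUSP6, the phosphatase most often used as a readout of FGF and ERK activity, had only 22 counts without VPA and 26 with it and was not tested. Without the filter on low counts its log2 fold change was 0.096 (SE 0.44, adjusted p = 0.896).

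The PEA3 factors ETV1, ETV4 and ETV5, transcription factors that FGF signals induce in many embryonic tissues, had few counts and diverged. ETV1 had 65.2, 60.7 and 70.3 normalized counts in untreated and 31.6, 40.5 and 46.9 in VPA-treated libraries, and fell by 0.72 on the log2 scale (SE 0.17, adjusted p = 8.06e-04), which was the largest decrease of the 25 genes. ETV4 had raw counts of 9, 4 and 1 in untreated and 14, 12 and 16 in VPA-treated libraries, a log2 fold change of 1.44 (SE 0.45, adjusted p = 0.0080). The ETV4 call was lost with DESeq2 (adjusted p = 0.0638) and without untreated replicate 3, where the log2 fold change was 0.97 (adjusted p = 0.0581 in edgeR). Without untreated replicate 1, the untreated library with the most ETV4 counts, it was 2.30 (adjusted p = 7.96e-04). ETV4 shares 68 exonic bases with DHX8 on the other strand, which had 9038 and 9165 counts. ETV5 had 25 counts in each condition and was not tested.

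**Figure D3:**
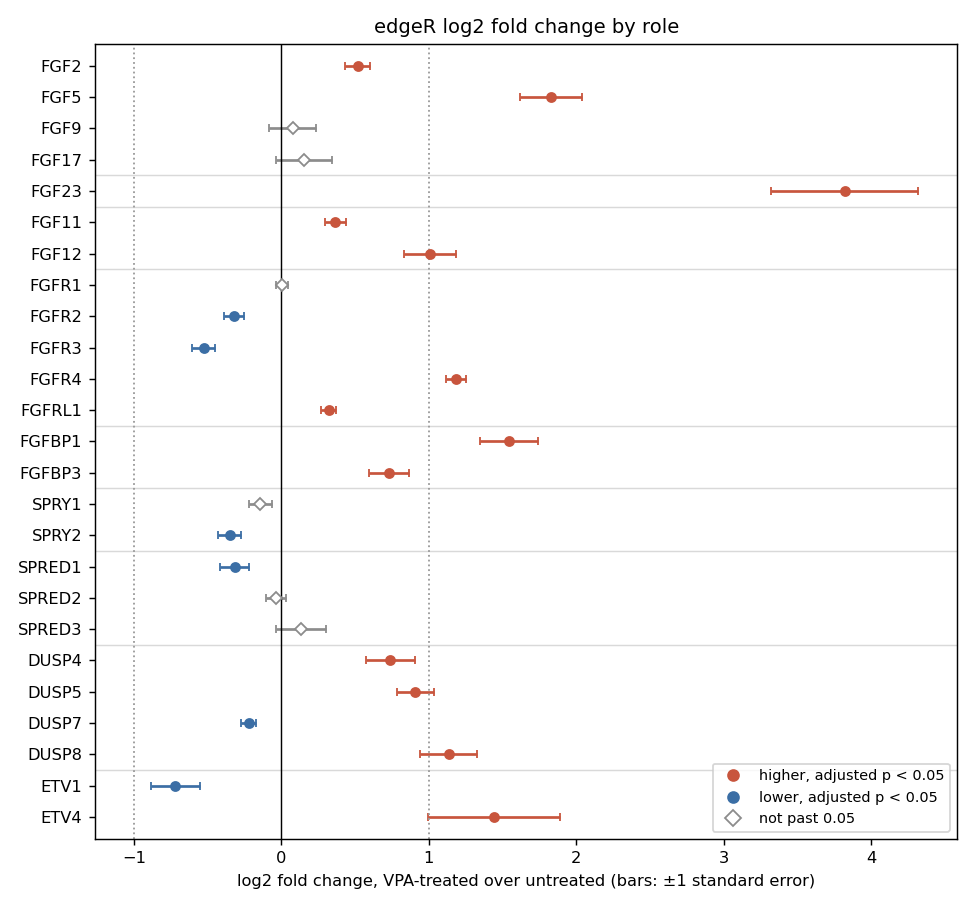
Log2 fold change of the 25 tested genes, VPA-treated over untreated, from edgeR, with bars of 1 standard error, dotted lines at the fold threshold and colours for genes past an adjusted p of 0.05. Ligands and carriers lie at or right of 0, from 0.077 for FGF9 to 3.82 for FGF23, while Sprouty and Spred genes lie between -0.35 and 0.13.

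Set side by side, the 5 tested secreted ligands had a median log2 fold change of 0.52 and ranged from 0.077 to 3.82. That median is the value of 1 gene, FGF2, which shares exonic bases with NUDT6. The 11 tested feedback genes had a median of -0.037 and ranged from -0.72 to 1.44, and the median of all genes tested was 0.0058. The feedback median was 0.094 with library totals, 0.028 with upper quartile scaling and 0.052 without VPA replicate 2, so its sign was not stable. The ligand median moved with the filter on low counts, from 0.36 with at least 10 counts in every library, where FGF23 is not tested, to 0.59 without a filter. The difference between the 2 groups of genes is a description and was not tested.

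The other genes of the pathway were read from lists chosen with results of these data known. Of 23 tested co-receptors and heparan sulfate genes 18 rose and 3 fell, with a median log2 fold change of 0.36, which made it the list with the highest share of rising genes, 78.3% against the background of 32.9%. DESeq2 gave 15 and 3. The 3 that fell were EXT1 by 0.48, NDST1 by 0.25 and GLG1 by 0.10 on the log2 scale. NDST3, among those that rose, passed the filter on low counts only through VPA-treated libraries. The syndecan SDC1 went from 251 ± 4.22 to 682 ± 40.7 normalized counts (SD, n = 3), a log2 fold change of 1.44 (adjusted p = 1.00e-13). FLRT1, a membrane protein that binds FGF receptors, went from 31.7 ± 2.40 to 189 ± 3.92, a log2 fold change of 2.57. The adhesion molecule NCAM1 rose by 1.07, the sulfotransferase HS6ST3 by 1.18 and the syndecan SDC3 by 0.67 on the log2 scale. IL17RD, known as SEF, a feedback inhibitor that binds FGF receptors, went from 352 ± 21.7 to 663 ± 23.3, a log2 fold change of 0.91 (adjusted p = 7.69e-11).

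The shares of adaptors and cascade genes that rose or fell lay around those of all genes tested, 32.9% and 30.0%. Of 14 adaptors 4 rose (28.6%) and 5 fell (35.7%), against 3 and 4 with DESeq2. The docking protein GAB2 rose by 1.23, SHC2 by 1.15 and SHC3 by 1.06 on the log2 scale, while SHC1 and GRB2, with more counts, fell by 0.30 and 0.18. SHC3 rested on few counts, at 7.29 ± 4.48 and 15.4 ± 4.39 normalized counts (SD, n = 3), its groups overlapped, and the call was lost with DESeq2 (adjusted p = 0.133). Of 19 tested genes of the RAS to ERK cascade 8 rose (42.1%) and 4 fell (21.1%), the same counts as with DESeq2, with a median of -0.020. RASAL1, which turns RAS off, went from 12.5 ± 2.01 to 110 ± 2.11 normalized counts, a log2 fold change of 3.12 (adjusted p = 2.72e-12). RASGRP1, an activator of RAS, rose by 1.22, the scaffold KSR2 by 1.01 and RASA3 by 0.76 on the log2 scale.

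Of 18 tested early output genes of ERK 8 rose (44.4%) and 6 fell (33.3%), against 32.9% and 30.0% of all genes tested, and DESeq2 gave 6 and 5. EGR2 and EGR3, zinc finger factors induced within minutes of a growth factor signal, went from 3.48 ± 2.64 to 22.7 ± 4.31 and from 4.19 ± 2.78 to 22.7 ± 2.07 normalized counts (SD, n = 3). Their log2 fold changes were 2.66 (adjusted p = 7.23e-06) and 2.41 (adjusted p = 1.17e-05), and both passed the filter only through VPA-treated libraries. FOSL1 rose by 1.13, whereas MCL1 fell by 0.47 and IER5 by 0.38 on the log2 scale. Of the 5 other MAP kinase phosphatases tested, 1 rose and 3 fell, among them DUSP16 at -0.33 and DUSP1 at -0.37. Of 11 other ETS factors 3 rose and 4 fell, and ETS1 went from 158 ± 3.18 to 389 ± 23.8 normalized counts, a log2 fold change of 1.30 (adjusted p = 1.15e-11). ELK3 rose by 0.80 and GABPA fell by 0.31.

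**Figure D4:**
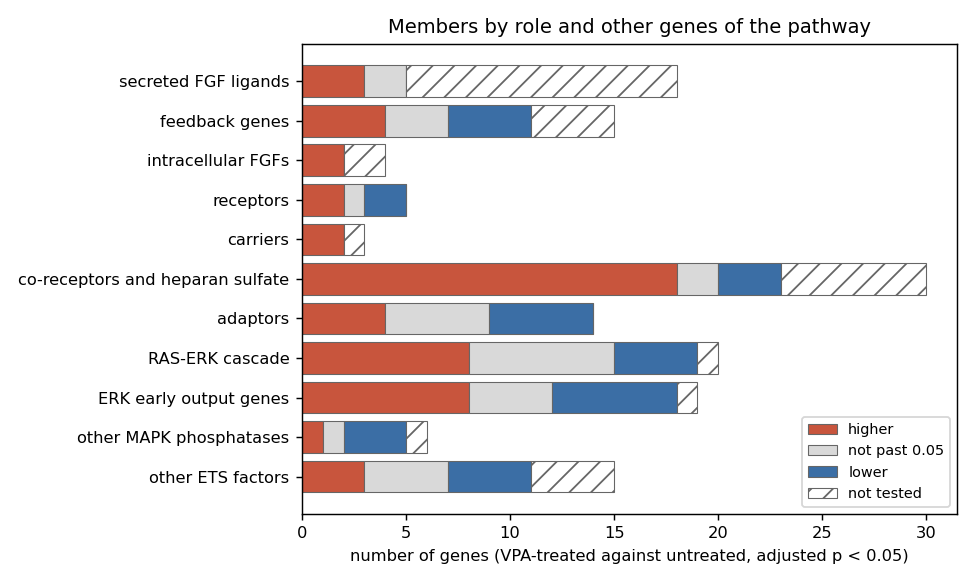
Number of genes in each group that rose, fell, passed neither way or were not tested, for the members by role and for the other pathway lists. Co-receptors and heparan sulfate genes have 18 rising and 3 falling genes, feedback genes 4 and 4, and 13 of 18 secreted ligands were not tested.

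Some markers of other cell types moved with the treatment. The counts below stand beside 32.9% of all genes tested that rose and 30.0% that fell. Of 8 fibroblast markers 6 were tested, of which 5 rose and 0 fell. The summed level of the 8 was between 557 and 625 normalized counts in untreated and between 2050 and 2242 in VPA-treated libraries. COL1A2 and THY1 had no more than 2 counts each in all and were not tested. Of 5 endothelial markers 2 were tested, KDR and VWF, and both rose. The sums of the 5 were 10.4 to 20.9 in untreated and 138 to 171 in VPA-treated libraries. PECAM1, CDH5 and TEK had no more than 7 counts each and were not tested. The fibroblast marker DCN and VWF passed the filter on low counts only through VPA-treated libraries. Of 6 immune markers 2 were tested, of which 0 rose and 1, CD68, fell. Among those not tested, PTPRC, CD3E and LYZ had no more than 12 counts each. The part of these markers in the rise of FGF5, FGFBP1 or FGF23 was not tested. Of 14 genes of embryonic kidney epithelium 12 were tested, of which 4 rose and 5 fell, and PAX8 had 2 counts in all.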

How the data were processed

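Per the labels and the study's methods, the authors filtered reads of 3 untreated and 3 VPA-treated HEK293T libraries (SOAPnuke), aligned them by STAR to hg38 (2.7.10b in the submitters' processing notes) and deposited raw counts per gene from htseq-count (2.0.1 there). The deposited counts are not normalized. Gene annotation and strand setting are not given in the sources used here. Lines without a gene were dropped (reads off genes 6.80% to 7.69%, ambiguous 1.97% to 2.10%, not unique 2.81% to 2.92%).

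Counts were fitted in edgeR 4.0.16 (R 4.3.3) with TMM, filterByExpr (minimum 10), a robust quasi-likelihood fit on condition, a prior of 0.125 counts, and p-values adjusted by Benjamini-Hochberg over 15298 genes. SE is the log2 fold change over the root of F. The biological coefficient of variation was 3.83%. Genes with few counts have wide errors. Normalized counts are scaled to the mean library. Libraries of a condition differed by more than sampling noise (chi-square per gene 1.62 to 4.80) and each counted as 1 replicate. Exon lengths and overlaps are from GENCODE 44, positions and promoters from RefSeq. The code was tested on simulated data.

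Alternatives were DESeq2 1.42.0, 3 other scalings, 2 other filters, a prior of 2 counts, glmTreat, an adjusted p under 0.01, a replicate block and leaving out each library. Members, lists and tests were chosen with earlier results of these data known. Each tested member is named. From the other lists, up to 4 genes per direction past both thresholds and 2 past the FDR alone were named, by p, except for genes not reported here. Genes that overlap a member, KL, KLB, EXT1, NDST1, GLG1, NDST3 and the markers were named outside this rule.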

Additional observations from a re-analysis of the deposited data

How the results depend on the processing

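Of 348 recomputed log2 fold changes of the 25 members, 331 kept their direction and side of an adjusted p of 0.05, 11 changed sign, 5 were weaker and 1 stronger. The fold threshold was crossed by FGF12 (down to 0.84), by DUSP8 without VPA replicate 1 (0.99), by ETV4 without untreated replicate 3 (0.97) and by DUSP5 with library totals (1.04). FGFR1 changed sign at values near 0, with -0.020 (DESeq2), -0.0093 (DESeq2 size factors) and -0.017 (no filter), and between -0.014 and 0.017 with a library left out. SPRED2 was 0.028 with upper quartile scaling and 0.0945 with library totals. With a library left out SPRED2 lay between -0.073 and 0.019, SPRED3 between -0.0135 and 0.25 and FGF9 between -0.0043 and 0.14. Library totals moved the median of all genes to 0.14, close to the shift in these genes, and with them SPRED1 (-0.19) and DUSP7 (-0.091) no longer passed. The ligand median was 0.36 with DESeq2, 0.36 with at least 10 counts in every library, where FGF23 is not tested, and 0.65 with library totals. The feedback median was 0.0945 with library totals and lay between -0.096 and 0.052 with a library left out. glmTreat, which asks for more than the fold threshold, called 4 members up-regulated in place of 7, namely FGF23, FGF5, FGFBP1 and FGFR4. The other alternatives called 5 to 8, with 5 for DESeq2, which dropped ETV4 and FGF12. Members that rose numbered 11 to 15 and those that fell 4 to 6. The replicate block gave 7 up-regulated members, 13 that rose and 6 that fell, and medians of 0.52 and -0.037. Across genes, deviations from the group means had r of 0.13, 0.018 and 0.071 between same-numbered libraries. Between libraries with different numbers r lay from -0.098 to 0.031, so 0.13 and 0.071 were above every such pair. The labels number the libraries but do not state a pairing, and whether they are paired was not settled. Each library left out gave 6 up-regulated members, and the causes of changes other than those named were not tested. Low counts limit the members that were not tested, other than the 3 on chromosome X, where every listed gene is at 0.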
